A study of Arabidopsis thaliana with 6 samples.

Results

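Transcripts of the chloroplast genome were followed in *Arabidopsis thaliana* seedlings without linker histone H1 and in wild-type seedlings. A gene was taken as a chloroplast gene where its identifier in the deposited count table began with ATCG, which held for 125 of 26764 genes. The other genes were 26511 nuclear and 128 mitochondrial genes. The study asked what the loss of H1, a protein that binds nucleosomes in the nucleus, does to chromatin and to transcript levels. Its RNA-seq compared *3h1* seedlings, which carry the h1.1-1, h1.2-2 and h1.3-2 alleles, with wild-type (wt) seedlings, both of the Col-0 ecotype and both harvested at an age of 3 weeks. The *3h1* alleles are T-DNA insertions in all 3 H1 genes, and the h1.3 allele was brought in by crossing from the L*er* accession, of which some sequence remains, mainly around H1.3. All seedlings were grown on agar in long days, and each of the 3 biological replicates of a genotype was made from pooled seedlings. Each p value therefore measures the spread between pools.

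The chloroplast keeps a small circular genome of bacterial origin. It encodes core subunits of the photosystems, the cytochrome b6f complex, the ATP synthase and the NDH complex, the large subunit of Rubisco, subunits of a bacterial-type RNA polymerase, ribosomal proteins, ribosomal RNAs and transfer RNAs. The genes are transcribed by the bacterial-type polymerase, which takes its promoter specificity from sigma factors encoded in the nucleus, and by a phage-type polymerase that is itself a nuclear gene product. Chloroplast DNA carries no histones, and many transcript levels are set by RNA-binding proteins imported from the cytosol. A pair of long inverted repeats holds some of the genes in 2 copies. In the RefSeq sequence of TAIR10.1, 154478 bases long, 129 genes are annotated, of which 85 encode proteins, 37 transfer RNAs and 7 ribosomal RNAs.

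The values were expected counts, which the authors' expectation-maximization step had divided between loci where a read matched several. RNA had been depleted of ribosomal RNA before sequencing and remaining ribosomal reads had been filtered out, so each share below is a share of what was left. The total count was between 5115676 and 6174881 in the *3h1* libraries and between 4753812 and 5924967 in the wt libraries. Of the mutated genes, H1.1 had between 84 and 120 counts in *3h1* and between 349 and 416 in wt, and H1.2 had between 76 and 87.9 counts in *3h1* and between 350 and 420 in wt, so both followed the genotype label in every library. H1.3 was not analysed here. Counts per 1000000 (CPM) are given after TMM scaling, which sets library sizes from the bulk of genes. Summed over 3 flower markers, counts were between 5 and 37.1 in *3h1* and between 2 and 8.11 in wt, and over 5 root markers they were between 46.9 and 80.0 in *3h1* and between 51 and 59.5 in wt.

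Chloroplast genes held a smaller share of the library in *3h1*. They took 52.2, 54.5 and 53.2% of the count in the *3h1* libraries, against 55.5, 60.0 and 59.8% in the wt libraries, with values here and below in the order of replicates 1, 2 and 3. The groups did not overlap, and the highest *3h1* library lay close below the lowest wt library. The mean was 53.3% ± 1.15 in *3h1* and 58.4% ± 2.54 in wt (SD, n = 3 each), a difference of -5.13 percentage points. An exact two-sided permutation test of 3 against 3 libraries cannot give a p under 0.1. Leaving out 1 library at a time, the difference lay between -6.59 and -4.33 points. Per nuclear count there were 1.12, 1.22 and 1.17 chloroplast counts in the *3h1* libraries, against 1.27, 1.55 and 1.52 in the wt libraries, without overlap. Chloroplast and nuclear counts make up nearly all of each library, so this ratio and the nuclear share largely restate the chloroplast share. The mitochondrial share was 1.22, 1.04 and 1.09% in *3h1*, against 0.962, 1.16 and 0.992% in wt, and overlapped between the genotypes. The nuclear share was 45.6% ± 1.06 in *3h1* and 40.5% ± 2.61 in wt (SD, n = 3 each), without overlap. From shares of bulk samples fewer chloroplasts or green cells, less RNA in each chloroplast and more nuclear RNA cannot be told apart.

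**Figure D1:**
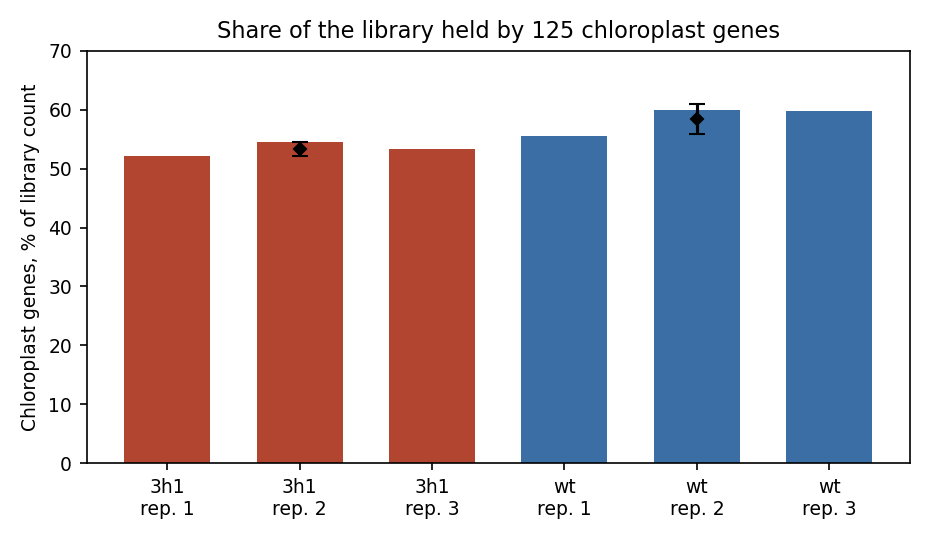
Share of the library count held by the 125 chloroplast genes, in percent, with 1 bar per library and the mean and SD of each genotype (diamond and whiskers, n = 3). The *3h1* bars stand between 52.2 and 54.5% and the wt bars between 55.5 and 60.0%.

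Nuclear markers of green tissue were set beside this share. The 4 listed genes, RBCS1A, LHCB1.3, RCA and GAPA, which encode a Rubisco small subunit, a light-harvesting protein, Rubisco activase and a Calvin cycle enzyme, were all present, and their summed level was 6623, 6300 and 6937 CPM in *3h1*, against 8525, 8254 and 7715 CPM in wt. The *3h1* libraries were all below the wt libraries in this sum, which separated through LHCB1.3, with 3010, 2543 and 3700 CPM in *3h1*, against 4724, 4403 and 3966 CPM in wt. RBCS1A, RCA and GAPA overlapped between the genotypes, and RCA had 1693, 1832 and 1592 CPM in *3h1*, against 1670, 1708 and 1837 CPM in wt. The log2 fold changes were -0.50 for LHCB1.3, -0.20 for RBCS1A, -0.12 for GAPA and -0.03 for RCA, and the smallest adjusted p in edgeR was 0.416, for LHCB1.3. Their part in the chloroplast share was not tested.

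Most of the chloroplast count came from few genes. ATCG00020, the most abundant member, made up 28.6, 34.4 and 34.3% of the chloroplast count in *3h1*, against 39.9, 31.7 and 38.8% in wt. The groups overlapped, because wt replicate 2 lay below *3h1* replicates 2 and 3. ATCG00490 followed with 15.6, 16.2 and 14.7% in *3h1* and 17.6, 11.4 and 15.2% in wt. ATCG00400 came next with 11.9, 9.71 and 8.91% in *3h1* and 5.72, 12.2 and 9.89% in wt. In both genes the wt libraries spread more widely than the *3h1* libraries and enclosed them. The 10 most abundant members, which also include ATCG00280, ATCG00320, ATCG00350, ATCG00340, ATCG00100, ATCG00230 and ATCG00680, together held 78.2, 79.6 and 78.6% in *3h1* and 81.5, 78.0 and 82.9% in wt. At the other end, 74 members averaged under 0.1% of the chloroplast count each and together held between 2.70 and 3.22% of it in *3h1* and between 2.49 and 2.77% in wt. Even so, the smallest count of a member in any library was 34, and all 125 members passed the filter on low counts.

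**Figure D2:**
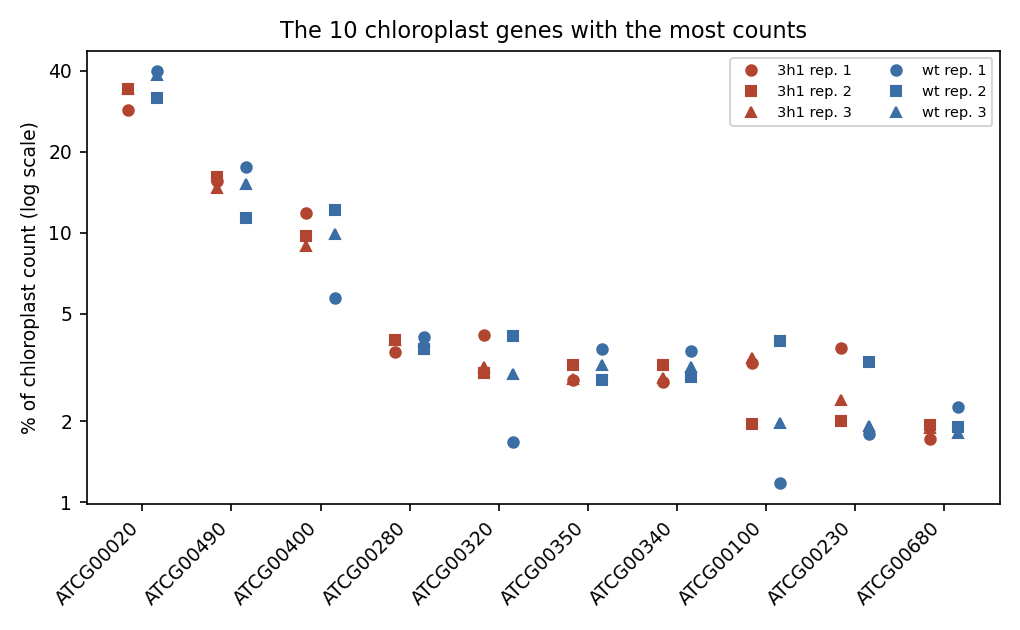
Percent of the chloroplast count (log axis) for the 10 chloroplast genes with the most counts, with 1 point per library, *3h1* in red and wt in blue. ATCG00020 lies between 28.6 and 39.9%, and for each gene the points of the genotypes overlap.

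The share of the library did not rest on every gene alike. Without ATCG00020 the remaining members held 43.8, 44.0 and 42.8% of the remaining count in *3h1*, against 42.8, 50.6 and 47.6% in wt, a difference of -3.51 points with overlapping groups. The overlap came from wt replicate 1, in which ATCG00020 took its highest share of the chloroplast count. With only the 54 members whose counts were whole numbers in all 6 libraries, the share was 36.0, 40.1 and 37.8% in *3h1* and 42.8, 40.8 and 45.5% in wt. That difference was -5.06 points and the groups did not overlap.

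The genes were then compared singly, relative to the whole library. With TMM scaling the levels of most chloroplast genes were lower in *3h1*, by small amounts, while total count scaling put their median slightly above 0. The log2 fold change of *3h1* over wt was below 0 for 102 of the 125 members, where 48.8% of all 17453 tested genes were below 0. Its median was -0.19 over the members and 0.01 over all genes tested. By edgeR's quasi-likelihood test with Benjamini-Hochberg adjustment, 0 members passed an adjusted p under 0.05 in either direction, against 0.0401% of all genes, and the smallest adjusted p of a member was 0.217. DESeq2 and limma voom also gave 0. At an unadjusted p under 0.05, 25 members (20%) were lower in *3h1*, against 4.17% of all genes, and 1 member (0.8%) was higher, against 5.33%. In 38 members (30.4%) every *3h1* library was below every wt library, against 7.53% of all genes, and 0 members had every *3h1* library above every wt library, against 7.6%. Members share libraries and the same scaling, so these counts are no independent observations.

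The sign of these values depended on the scaling. A change of scaling shifts all genes nearly alike, so the place of the members relative to other genes could hardly change with it. Scaling by the total count, in which the chloroplast genes themselves are more than 50% of each library, moved the median of all genes to 0.24 and that of the members to 0.047, and 52 of 125 members were then below 0. The members' median lay -0.20 from that of all genes under TMM scaling and -0.19 from it under total count scaling. Members below the median of all genes numbered 102 under TMM and 101 under total count scaling. The count of lower members also depended on single libraries. It was 6 without *3h1* replicate 1, 44 without *3h1* replicate 2, 15 without wt replicate 2 and 8 without wt replicate 3. Without *3h1* replicate 2, 1 member passed the adjusted p.

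**Figure D3:**
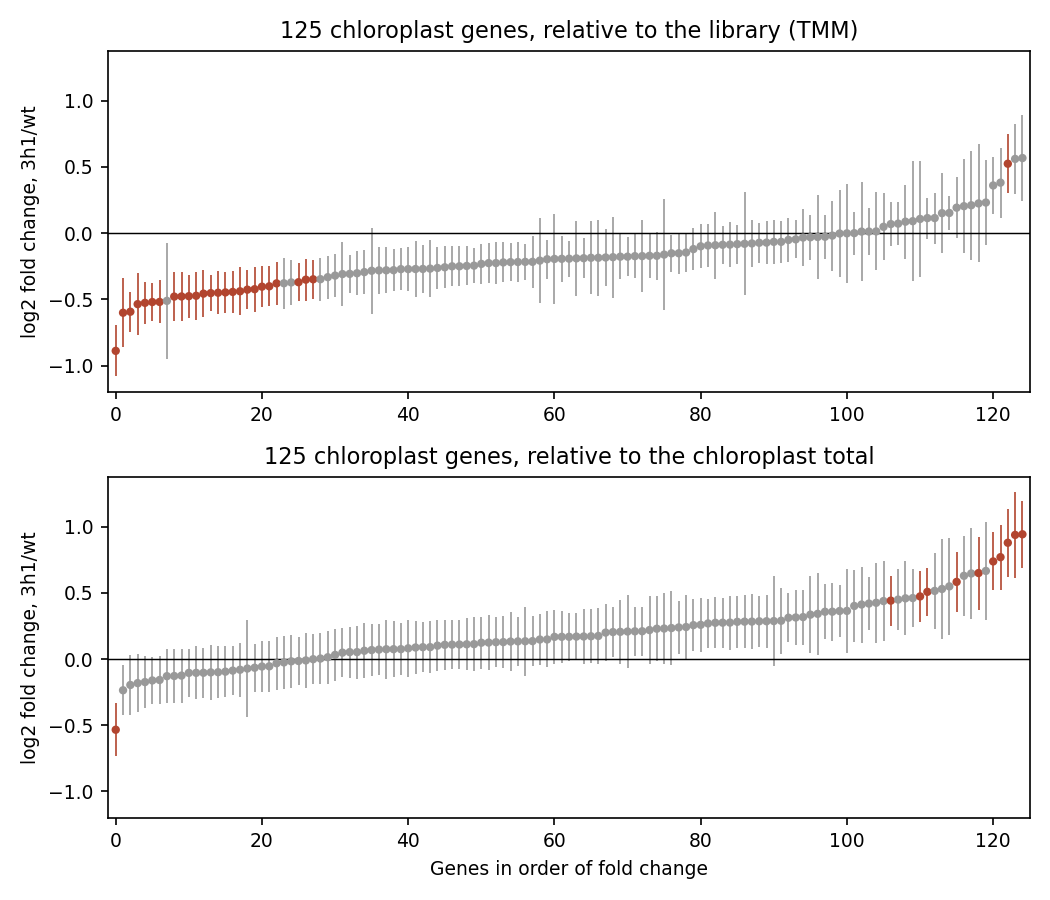
Log2 fold change of *3h1* over wt with its standard error for the 125 chloroplast genes in order of size, relative to the library (upper panel) and relative to the chloroplast total (lower panel). Red marks an unadjusted p under 0.05 by edgeR, which 26 genes had in the upper panel, 25 of them below 0, and 11 in the lower panel, 10 of them above 0.

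Among members with the smallest p values and no overlap, ATCG00590 differed most. Its count was 135, 188 and 179 in *3h1*, against 272, 215 and 263 in wt, or 20.1, 35.1 and 26.8 CPM against 44.7, 53.6 and 53.4 CPM. The *3h1* libraries were all below the wt libraries, with *3h1* replicate 1 the lowest. Its log2 fold change was -0.89 ± 0.19 (SE), with an adjusted p of 0.217 in edgeR, and the unadjusted p stayed under 0.05 in all 16 alternatives. It was a minor transcript, ranking 112 among the 125 members by mean share.

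ATCG00690 had 150, 178 and 199 CPM in *3h1*, against 248, 276 and 272 CPM in wt. The groups stood apart, and the log2 fold change was -0.59 ± 0.15 (SE), with an adjusted p of 0.286 in edgeR. For this gene too the unadjusted p stayed under 0.05 in all 16 alternatives, and no other of the 26 members with a low unadjusted p did so. ATCG00440 had 151, 179 and 157 CPM in *3h1*, against 218, 224 and 224 CPM in wt. Its wt libraries were closer together than its *3h1* libraries, and its log2 fold change was -0.45 ± 0.14 (SE). ATCG00070 (-0.52), ATCG00220 (-0.53) and ATCG00510 (-0.52) completed the 6 named members that were lower, with edgeR adjusted p values of 0.311, 0.327 and 0.347, and each lost its unadjusted p under 0.05 in 1 of 16 alternatives.

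The most abundant members showed the same sign on the library scale with TMM. Of the 10 largest, all 10 had a negative log2 fold change, as did 48.8% of all genes tested, and 4 were lower at an unadjusted p under 0.05, against 4.17% of all genes. ATCG00020 reached 137663, 178870 and 166911 CPM in *3h1*, against 215343, 225233 and 260521 CPM in wt. Its groups did not overlap, and its log2 fold change was -0.54 ± 0.24 (SE), with an adjusted p of 0.505 in edgeR. The unadjusted p of ATCG00020 stayed under 0.05 in 9 of 16 alternatives. The other 3 were ATCG00350, ATCG00340 and ATCG00680, with log2 fold changes of -0.48, -0.48 and -0.46. The single member that was higher was ATCG01290, with 12.4, 10.6 and 14.8 CPM in *3h1* and 8.70, 11.1 and 6.90 CPM in wt. Its groups overlapped, since wt replicate 2 lay above *3h1* replicate 2, and its log2 fold change was 0.52 ± 0.22 (SE), with an adjusted p of 0.485 in edgeR.

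The genes were next set against the chloroplast total of their own library, which takes out the difference in the chloroplast share and leaves the makeup of the chloroplast transcripts. No chloroplast gene passed the adjusted test here, and the share of members called higher in *3h1* was below that of all genes. In edgeR with Benjamini-Hochberg adjustment over all genes, 0 members passed an adjusted p under 0.05, against 0.584% of all genes, and DESeq2 and limma voom also gave 0. At an unadjusted p under 0.05, 10 members (8%) were higher, against 20.5% of all genes, and 1 member (0.8%) was lower, against 0.327%. In 11 members every *3h1* library was above every wt library, against 25.3% of all genes, and in 2 members every one was below, against 0.51%. The background is high here because division by the chloroplast total raises nuclear genes in *3h1*, with a median log2 fold change of 0.17 over the members and 0.36 over all genes. With TMM computed within the chloroplast genes, the members' median was 0.049 and 52 of 125 members were below 0, against 28 with the chloroplast total. Without *3h1* replicate 2, 12 members passed the adjusted p and 19 were higher, and without *3h1* replicate 3 1 member passed it. The number higher was 4 without *3h1* replicate 1, 23 without wt replicate 2 and 6 without wt replicate 3.

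Of the members higher relative to the total, 8 of 10 made up less than 0.05% of the chloroplast count. ATCG00290 had 376, 181 and 175.9 counts in *3h1*, against 118, 122 and 146 in wt. All *3h1* libraries were higher, but *3h1* replicate 1 stood well above the other *3h1* libraries. Its log2 fold change was 0.94 ± 0.25 (SE), with an adjusted p of 0.0837 in edgeR. ATCG01290 had a log2 fold change of 0.88 ± 0.26 (SE) and ATCG01220 one of 0.74 ± 0.22 (SE), with edgeR adjusted p values of 0.106 and 0.109. Both belong to gene pairs whose reads were divided, which are described with the pairs.

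ATCG01000 had 349, 278 and 316 counts in *3h1*, against 261, 183 and 235 in wt, or 0.0108, 0.00999 and 0.00972% of the chloroplast count against 0.00792, 0.00642 and 0.00708%. The unrounded counts were fractional in all 6 libraries, so they include divided reads, and the gene is in none of the pairs described below. Its *3h1* shares lay close together and above the wt shares, with a log2 fold change of 0.51 ± 0.18 (SE) and an adjusted p of 0.158 in edgeR. ATCG00650 (0.47 ± 0.19, SE) and ATCG00700 (0.44 ± 0.19, SE) were the other named members, with edgeR adjusted p values of 0.192 and 0.207. ATCG00700 was the most abundant of the 10, with 0.168, 0.146 and 0.136% of the chloroplast count in *3h1*, against 0.113, 0.113 and 0.105% in wt. On this scale the unadjusted p of 4 of the 11 members, ATCG00290, ATCG01290, ATCG01220 and ATCG00910, stayed under 0.05 in all 13 alternatives.

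ATCG00590 was the only lower member with an unadjusted p under 0.05 on both scales, and ATCG01290 the only higher one. Relative to the chloroplast total its log2 fold change was -0.53 ± 0.20 (SE), with an adjusted p of 0.172 in edgeR. Its share of the chloroplast count was 0.00419, 0.00675 and 0.00550% in *3h1*, against 0.00827, 0.00754 and 0.00794% in wt. The wt shares were nearly equal and the *3h1* shares differed more among themselves. All 25 members that were lower on the library scale were also below 0 relative to the chloroplast total. The 2 scales differ mainly by a shift that the members share, so this is no separate result. ATCG00080, for example, moved from -0.35 to -0.0009.

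For some members the share of the chloroplast count varied widely between libraries of the same genotype. In 29 members (23.2%) the 3 highest shares of the chloroplast count were in *3h1* replicates 1 and 3 and wt replicate 2. Together these members held 19.6, 13.0 and 17.9% of the chloroplast count in *3h1*, against 9.05, 21.7 and 11.8% in wt. The set was found from these values, so the order itself is a description and carries no test. The highest share of a member in this set was 2.51 times its lowest (median over the 29 members), against 1.42 times for the other 96 members. The most abundant of the set were ATCG00320, ATCG00100 and ATCG00230. ATCG00100 had 3.28, 1.95 and 3.42% in *3h1*, against 1.17, 3.96 and 1.96% in wt, and wt replicate 2 was the highest library and wt replicate 1 the lowest. ATCG00980 spanned the widest range of the set, with 0.0823, 0.0294 and 0.0553% in *3h1* and 0.0229, 0.0615 and 0.0209% in wt. At an unadjusted p under 0.05, 1 of the 29 and 24 of the other 96 members were lower on the library scale, where 4.17% of all genes were. Relative to the chloroplast total, 3 of the 29 and 7 of the other 96 were higher, where 20.5% of all genes were.

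**Figure D4:**
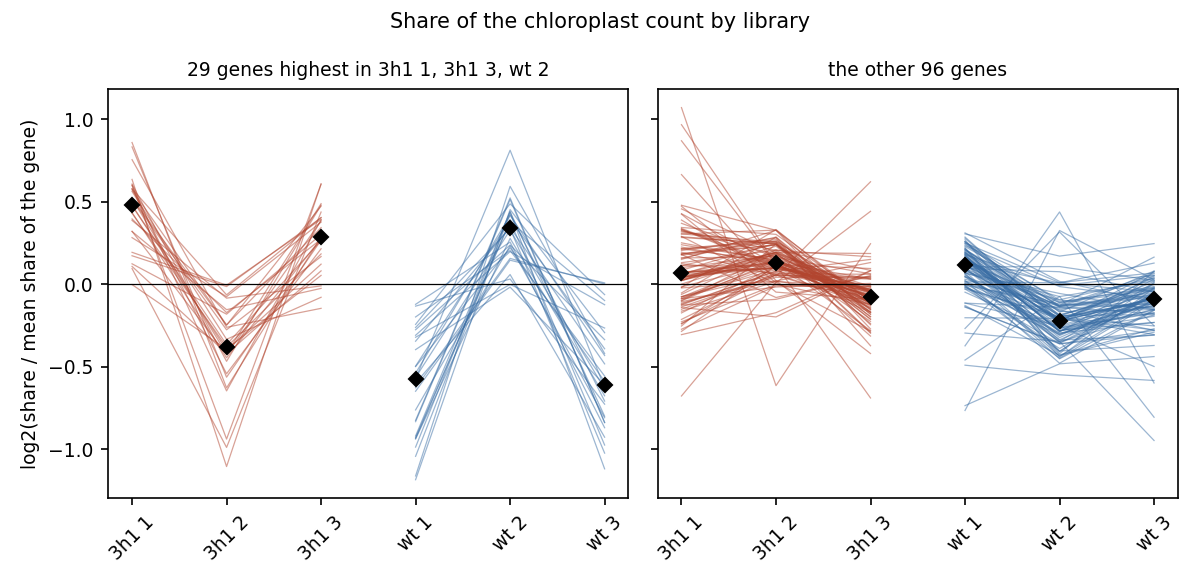
Share of the chloroplast count of each gene in each library, as log2 of the share over the gene's mean share, with 1 line per gene within each genotype and the median over genes as a diamond. The left panel holds the 29 genes highest in *3h1* replicates 1 and 3 and wt replicate 2, and the right panel the other 96, which vary less.

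Some nuclear gene classes showed this order as well. The 478 annotated transfer RNA genes held 2.31, 1.75 and 2.80% of the nuclear count in *3h1*, against 1.35, 3.33 and 1.55% in wt. Their 3 highest libraries were also *3h1* replicates 1 and 3 and wt replicate 2. The 2121 annotated pseudogenes had the same 3 highest libraries, with between 0.912 and 1.66% in *3h1* and between 0.873 and 1.09% in wt. The 259 annotated small nucleolar RNA genes, in contrast, held 11.6, 10.6 and 7.73% in *3h1* and 9.85, 9.77 and 11.3% in wt, with *3h1* replicate 3 the lowest. By CPM, 24 of the 125 members (19.2%) had their 3 highest values in these 3 libraries, against 7.45% of tested nuclear genes and 15.4% of tested mitochondrial genes. Most other members followed 1 of 3 further orders. In 50 the highest shares were in *3h1* replicates 1 and 2 and wt replicate 1, in 17 in *3h1* replicate 2 and wt replicates 1 and 3, and in 11 in the 3 *3h1* libraries. The share of the library held by the other 96 members was 46.7, 51.0 and 48.3% in *3h1*, against 53.1, 54.0 and 56.7% in wt, once the 29 were taken out of the library. That difference was -5.95 points, without overlap. The 29 held on average more of the chloroplast count in *3h1* than in wt, so their removal by itself widens the difference. What these libraries have in common was not tested.

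The counting also shaped single members. Where a read matches several loci equally well, the counts of these loci are estimates. Of the 125 members, 54 had whole counts in all 6 libraries (to within 0.001), 44 had a fractional count in 1 to 5 libraries and 27 in all 6. In 10 pairs of members both counts were fractional in at least 2 libraries and the pair summed to a whole number in every library (to within 0.02). A pair also had to have a smaller count of at least 0.5 times the larger in every library. Where the counts of a pair were fractional, at least 1 read was divided by the algorithm, and the sum does not depend on that division. How many reads were divided cannot be read from the counts. In most pairs both counts were fractional in all 6 libraries. The exceptions were ATCG00340 with ATCG00350 and ATCG00850 with ATCG01290 (2 libraries), ATCG00870 with ATCG01270 (3) and ATCG00880 with ATCG01260 (4). Where both counts were whole, a whole sum follows without any division. In 9 of the 10 pairs the partners ran in opposite order through the numbering, from ATCG00830 with ATCG01310 to ATCG00980 with ATCG01150. The remaining pair was ATCG00340 with ATCG00350.

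The sequence of rpl2, which encodes a protein of the large ribosomal subunit, shows why such reads cannot be assigned. RefSeq annotates 2 copies of rpl2 on the chloroplast sequence (Pltd) of TAIR10.1, at 84337 to 85843 on the minus strand and at 152806 to 154312 on the plus strand, and both copies of 1507 bases are identical. The first 120 bases of the gene, in the direction of transcription, are given for both copies, with the start codon in capitals.
rpl2 copy 1: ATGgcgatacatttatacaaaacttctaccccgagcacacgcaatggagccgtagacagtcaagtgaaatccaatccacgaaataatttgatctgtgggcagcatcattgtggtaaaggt
rpl2 copy 2: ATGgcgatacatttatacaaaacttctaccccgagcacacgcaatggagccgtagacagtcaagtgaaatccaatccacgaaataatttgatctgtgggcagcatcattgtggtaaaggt
The reference annotation matches ATCG01310 to ribosomal protein L2, and its partner in the counts was ATCG00830. The pair together had 9324, 7554 and 8456 counts in *3h1*, against 8164, 6142 and 6847 in wt. As a share of the chloroplast count this was 0.289, 0.271 and 0.260% in *3h1*, against 0.248, 0.215 and 0.207% in wt, with every *3h1* library above every wt library. ATCG01310 alone was also higher in each *3h1* library by share, with a log2 fold change relative to the chloroplast total of 0.31 ± 0.19 (SE) and an adjusted p of 0.328 in edgeR.

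Pairs had been kept only where the smaller count was at least 0.5 times the larger, so ratios far from 1 were left out in advance. Within that limit the ratio of the partners stayed near 1 in most pairs. For ATCG00880 over ATCG01260, both among the abundant members, it lay between 0.987 and 1.01. The widest range belonged to ATCG00850 over ATCG01290, with ratios of 1.14, 0.667 and 0.758 in *3h1*, against 1.13, 1.52 and 1.06 in wt. ATCG01290 was the single member called higher on the library scale and had 83.5, 57 and 99 counts in *3h1*, against 53, 44.4 and 34 in wt. The sum of this pair was 179, 95 and 174 counts in *3h1*, against 113, 112 and 70 in wt. As a share of the chloroplast count the sum overlapped between the genotypes, since *3h1* replicate 2 fell below wt replicates 1 and 2. The counts of ATCG01290 were fractional in *3h1* replicate 1 and wt replicate 2, where they include the division of reads within the pair. For ATCG00910 with ATCG01220 the sum was 573, 337 and 538 counts in *3h1*, against 281, 351 and 224 in wt, and its shares of the chloroplast count also overlapped, with *3h1* replicate 2 just below wt replicate 2.

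**Figure D5:**
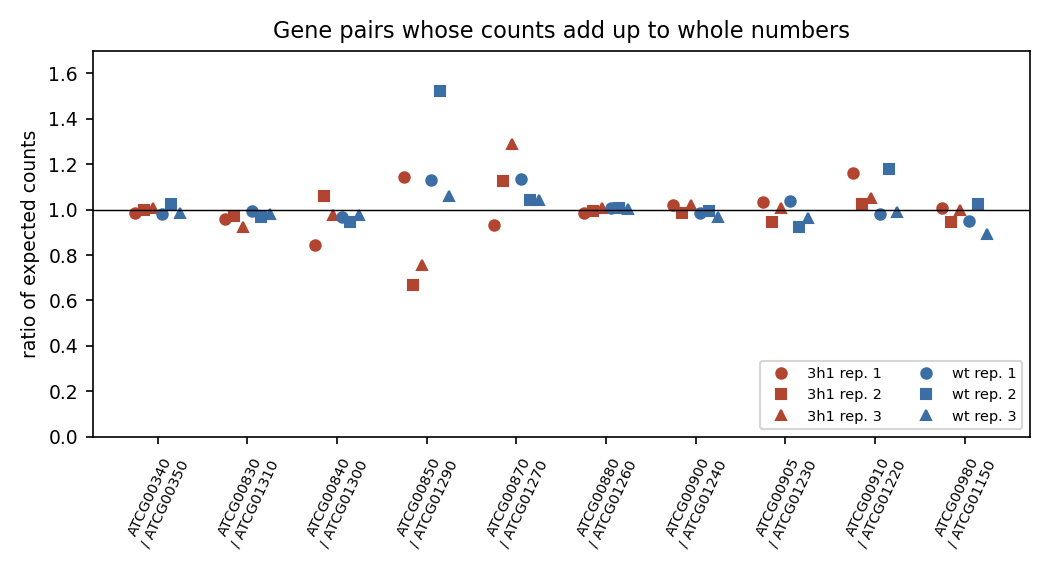
Ratio of the expected counts of the partners in the 10 pairs of chloroplast genes whose counts add up to whole numbers, with 1 point per library, *3h1* in red and wt in blue. Only pairs with a smaller count of at least 0.5 times the larger in every library were kept. Within that limit most ratios lie near 1, and ATCG00850 over ATCG01290 spans from 0.667 to 1.52.

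Of the 125 identifiers, 7 could be tied to a gene in the reference, which describes them only through nuclear genes that resemble them. For ATCG00420 a nuclear pseudogene was matched to the RefSeq chloroplast annotation by its DNA, and for the others the nuclear protein was matched to the nearest chloroplast protein. They include ATCG00420 (ndhJ) and ATCG00430 (ndhK), subunits of the NDH complex, which passes electrons from ferredoxin to plastoquinone, ATCG00530 (cemA), an envelope protein, ATCG00660 (rpl20) and ATCG01310 (rpl2), ribosomal proteins, and ATCG00670 (clpP), a subunit of the Clp protease. The reference text for ATCG00430 names a photosystem II protein, while the matched RefSeq gene is ndhK, a gene known under both names. The other 118 members are given by identifier alone.

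Both NDH subunits were among the 25 members that were lower on the library scale. ATCG00420 (ndhJ) had 370, 440 and 393 CPM in *3h1*, against 481, 534 and 539 CPM in wt, and ATCG00430 (ndhK) had 539, 654 and 511 CPM in *3h1*, against 728, 768 and 830 CPM in wt. Neither gene overlapped between the genotypes. Their log2 fold changes were -0.37 ± 0.15 and -0.45 ± 0.15 (SE), with edgeR adjusted p values of 0.449 and 0.394. Relative to the chloroplast total both were near 0, at -0.01 ± 0.18 and -0.10 ± 0.19 (SE). None of the other 4 genes just named had an unadjusted p under 0.05 on either scale, and their log2 fold changes on the library scale were -0.05 for ATCG01310 (rpl2), -0.18 for ATCG00660 (rpl20), -0.22 for ATCG00530 (cemA) and -0.23 for ATCG00670 (clpP).

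Levels per length were compared among these 6 genes with counts divided by coding length in kilobases and by the total count in units of 1000000 (RPKM). As counted per identifier, ATCG00670 (clpP) was the highest, with 1332 ± 101 RPKM in *3h1* and 1332 ± 84.4 RPKM in wt (SD, n = 3 each). ATCG00530 (cemA) had 1006 ± 106 RPKM in *3h1* and 1004 ± 119 RPKM in wt, next to ATCG00670 in *3h1* but below ATCG00430 (ndhK) in wt. ATCG00660 (rpl20) was the lowest, with 464 ± 55.5 RPKM in *3h1* and 450 ± 50.1 RPKM in wt, although it lies beside ATCG00670 in the numbering. The others, ATCG00430 (ndhK), ATCG00420 (ndhJ) and ATCG01310 (rpl2), had means from 899 to 904 RPKM in *3h1* and from 796 to 1049 RPKM in wt. In *3h1* these 3 overlapped. In wt ATCG00430 overlapped with ATCG00420, and ATCG01310 lay below both in every library. The value for ATCG01310 holds only its part of the reads of both copies. Its partner ATCG00830 had between 0.925 and 0.992 times its count in each library. The place of ATCG01310 among these genes is therefore not that of rpl2 over both copies, which was not ranked and would be higher.

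Nuclear genes that serve chloroplast gene expression were examined beside the members. The list holds 38 genes for sigma factors, phage-type polymerases, proteins of the polymerase complex and the nucleoid, and factors that process or stabilise chloroplast RNA, of which 37 were tested. In edgeR 0 of them passed an adjusted p under 0.05 on the library scale, and the smallest was 0.413. DESeq2 and limma voom also gave 0. Of the 37, 26 had a log2 fold change below 0 and 11 above 0, where 48.8% of all genes tested were below 0. The median was -0.07, against 0.01 over all genes tested. Listed genes share libraries and scaling, so these counts are no independent observations. At an unadjusted p under 0.05, 4 were lower and 1 was higher in *3h1*, where 4.17% and 5.33% of all genes were. Those lower were FSD2 (-0.84 ± 0.31, SE), an iron superoxide dismutase of the chloroplast nucleoid, the sigma factor genes SIG5 (-1.12 ± 0.43, SE) and SIG1 (-0.56 ± 0.22, SE), and PTAC16 (-0.33 ± 0.14, SE), a nucleoid protein. The higher one was MURE (0.37 ± 0.14, SE), a member of the polymerase complex.

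SIG5 had 9.90, 11.4 and 6.73 CPM in *3h1*, against 11.0, 11.7 and 37.9 CPM in wt. SIG1 had 21.2, 19.6 and 20.3 CPM in *3h1*, against 23.5, 23.8 and 43.0 CPM in wt. In both sigma factor genes wt replicate 3 alone was far above the other libraries. PTAC16 had 325, 348 and 297 CPM in *3h1*, against 414, 405 and 404 CPM in wt, with near-equal wt libraries and no overlap. The number of listed genes that were lower was 1 without *3h1* replicate 1, without *3h1* replicate 3 or without wt replicate 3, and 7 without *3h1* replicate 2.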

How the data were processed

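The authors aligned Ion Proton reads to TAIR10 with TMAP, keeping every mapping with the best score, and unaligned reads with BBMap. They deposited expected counts per ARAPORT11 gene, not normalized, in which the expectation-maximization step of Partek Flow divided multi-mapping reads. Their second table holds their own comparison (means per genotype, ratios, p values and FDR) and was not used. Whether strand was used in counting is not given in the sources used here. All 6 libraries, 3 per genotype, were used.

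Counts were rounded, filtered with filterByExpr, scaled by TMM and tested by the quasi-likelihood method in edgeR (version 4.0.16, run under R 4.3.3), and p values were adjusted by Benjamini-Hochberg over the 17453 genes that passed the filter. A second fit took the chloroplast total as library size. DESeq2 1.42.0 and limma 3.58.1 (voom) were alternatives, and the procedure was tested on simulated data. Python 3.11.15 was used for shares and figures, with matplotlib 3.10.9, scipy 1.17.1, numpy 2.4.6 and pandas 2.3.3. Counting error is small at these depths (95% Wilson binomial interval of the chloroplast share in *3h1* replicate 1, 52.1 to 52.2%) and intervals cover counting error only.

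The members and lists were chosen with earlier results of these data known. Named genes were the 10 members with the largest mean share, up to 6 in each direction and on each scale with the smallest p among those with an unadjusted p under 0.05 and no overlap, pairs whose counts differed, and listed nuclear genes with an unadjusted p under 0.05. Other genes named, such as those of the shared library order, were chosen after their values were seen. Planned lists by role, operon and polymerase were not applied, because 118 identifiers carry no name in the reference. H1.3, PPR10, SAG12 and the spike-in reads were not analysed here. A chloroplast gene tied to a reference name is not reported here singly. The listed senescence marker that was analysed, SAG13, had between 5 and 12.9 counts in *3h1* and between 1 and 5.07 in wt.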

Additional observations from a re-analysis of the deposited data

How the results depend on the processing

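Most results kept their direction, while counts of members at an unadjusted p under 0.05 depended on libraries and scaling. On the library scale, the 25 lower members became 12 with a replicate block and 2 with total count scaling, and between 6 and 44 with 1 library left out. The 1 higher member became 0 without a low-count filter, with DESeq2 and with the block, 2 with at least 10 counts in every library and with upper quartile scaling, 6 with total count scaling, and between 0 and 11 with 1 library left out. Members with an adjusted p under 0.05, 0 in the reported fit, numbered between 0 and 1 with 1 library left out. The median log2 fold change of the members changed sign with total count scaling alone (0.047) and lay between -0.30 and -0.15 with 1 library left out.

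Relative to the chloroplast total, members with an adjusted p under 0.05 numbered 1 without a low-count filter and between 0 and 12 with 1 library left out. Higher members, 10 in the reported fit, numbered between 4 and 23 with 1 library left out, and the 1 lower member between 0 and 1. The median was 0.049 with TMM within the chloroplast genes. Of the listed nuclear genes, the 4 lower became 1 with total count scaling and between 1 and 7 with 1 library left out, and the 1 higher became 0 without a filter and with DESeq2, 5 with total count scaling, and between 0 and 2 with 1 library left out. The cause of these shifts was not tested.

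Replicate numbers are shared between genotypes, but same-numbered libraries did not deviate together (r = -0.05, -0.14 and -0.11 over all tested genes). Over the chloroplast genes alone same-numbered libraries deviated in opposition (r = -0.46, -0.82 and -0.52), and r between different numbers ran from -0.53 to 0.72. The block is therefore given as an alternative and not as a pairing. It changed no other count by more than 1.5 times. Over the members with an unadjusted p under 0.05, no alternative changed a sign. These members were picked by p from the same counts, so their signs could hardly have changed. Removing the 29 members of the shared order, alone (-5.95 points) or with the annotated small nuclear, nucleolar and transfer RNA genes (-5.88 points), was chosen after seeing the data. The planned share without ribosomal and transfer RNA genes was not run, because the identifiers carry no such annotation here. Members with few counts are limited by depth, the lowest library of ATCG01290 holding 34.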
